A study of Mus musculus with 17 samples.

Results

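The genes described here are 10 markers of the oligodendrocyte lineage, most of them known from oligodendrocyte precursor cells: the transcription factors Olig1, Olig2 and Sox10, the cell surface proteins Pdgfra, Cspg4 and Gpr17, and the lineage genes Neu4, Lhfpl3, C1ql1 and Cacng4. They were taken by symbol from the 3 deposited raw count tables, in which they are 10 of 25239 genes, and each of the 10 was listed in every table.

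Oligodendrocyte precursors are dividing glial cells that persist in the adult cortex and give rise to myelinating oligodendrocytes. Platelet-derived growth factor acting on the receptor encoded by Pdgfra keeps them dividing, Olig2 and Sox10 hold the lineage programme throughout, and Pdgfra, Cspg4 and later Gpr17 are shut down as the cells mature and myelin genes such as Mbp are switched on. The precursors also receive synapses from neurons, and several of the genes described here encode proteins that act at or near synapses.

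Bulk RNA was sequenced from 2 areas of the frontal lobe, the orbitofrontal cortex (OFC) and medial prefrontal cortex (mPFC), of mice of the DAT-cre line, in which the dopamine transporter gene drives Cre recombinase in dopamine neurons, so all 6 groups share this allele. The mice were classed as perseverers (addicted) or renouncers (non-addicted) in oDASS, a protocol in which an animal stimulates its own dopamine neurons with light. Before the protocol, brain tissue imprints of the OFC gave 2 perseverer and 3 renouncer libraries. After it, dissections gave 3 perseverer and 3 renouncer libraries from the OFC and 3 perseverer and 3 renouncer libraries from the mPFC. Stage and way of collection change together between imprints and dissections and cannot be told apart. The labels give no age and name no animal for any library, so p-values measure the spread between these libraries only, which may be partly technical.

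The 5 imprints held 8960549 to 10662666 counts and the 12 dissections 12392731 to 20945108. Haemoglobin genes, a sign of red blood cells in the sample, took 85.4% to 90.7% of the counts of 4 imprints and 29.7% of those of imprint renouncer replicate 1, against at most 0.0787% in any dissection. Imprint renouncer replicate 1 stood apart: it kept 6556037 counts outside the haemoglobin genes, against 980475 to 1306576 in the other 4 imprints. Levels below are counts on the usual CPM scale after TMM scaling, which matches libraries on the bulk of their genes. The 12 dissections average the plain library-total scale. These are not levels per count outside the haemoglobin genes. The scaled size lay below those counts in all 5 imprints, at 345954 against 995911 in renouncer replicate 2. It was 6296180 against 6556037 in renouncer replicate 1. Summed over 8 neuron markers, the level was 3060 to 5165 CPM in the imprints and 8176 to 10506 CPM in the dissections, so neuronal RNA was present in all 17 libraries and lower in every imprint. The lineage genes were present too: none of their 170 values was 0.

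On the mm10 (GRCm38) reference, with the GENCODE M21 annotation, Pdgfra spans chr5:75152292-75198215, Cspg4 chr9:56865033-56899870 and Lhfpl3 chr5:22746059-23275597, all on the plus strand. Olig1 (chr16:91269772-91271933) and Olig2 (chr16:91225457-91228677) are neighbours on the plus strand of chromosome 16. Sox10 lies at chr15:79154908-79165240, C1ql1 at chr11:102939264-102946688 and Cacng4 at chr11:107732357-107794557, all on the minus strand and Neu4 at chr1:94020451-94028334 on the plus strand. The library kit keeps no strand, so reads of an overlapping antisense gene cannot be told from the gene's own. Such overlap covers 17.65% of the exon bases of Lhfpl3 (with A930003O13Rik), 7.262% of Olig1 and 3.619% of Gpr17, and 4.848% of Pdgfra overlaps other genes.

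Promoter sequence from RefSeq (GRCm38.p6) was matched for 5 of the 10 genes. The promoters of Pdgfra, Cspg4 and Lhfpl3 are shown because these genes had the outermost values below. Pdgfra and Cspg4 had the lowest OFC to mPFC ratios. Lhfpl3 alone of the 10 had a negative log2 fold change in imprints against dissections with TMM scaling. Its call there rested on few imprint counts and was lost in most fits that left out a single library. Each is the stretch of up to 250 bases before the transcript start that the RefSeq promoter table uses, and before the first GENCODE exon, 5′ to 3′ on the plus strand, at chr5:75152001-75152250 (Pdgfra), chr9:56864854-56865032 (Cspg4) and chr5:22745804-22746053 (Lhfpl3). For Pdgfra that start lies inside the RefSeq gene, whose outermost start is base 75151322, and the stretch ends before the GENCODE start. Capitals mark the E-box CANNTG, the motif that basic helix-loop-helix factors such as the Olig proteins can bind.
Pdgfra: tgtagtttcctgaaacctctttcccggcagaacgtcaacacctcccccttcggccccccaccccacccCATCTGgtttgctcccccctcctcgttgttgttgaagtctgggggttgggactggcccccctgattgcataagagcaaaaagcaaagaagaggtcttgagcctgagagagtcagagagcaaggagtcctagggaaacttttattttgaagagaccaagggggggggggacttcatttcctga
Cspg4: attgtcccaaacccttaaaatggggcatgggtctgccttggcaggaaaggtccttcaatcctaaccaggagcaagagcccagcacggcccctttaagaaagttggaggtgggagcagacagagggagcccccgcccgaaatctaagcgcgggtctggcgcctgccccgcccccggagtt
Lhfpl3: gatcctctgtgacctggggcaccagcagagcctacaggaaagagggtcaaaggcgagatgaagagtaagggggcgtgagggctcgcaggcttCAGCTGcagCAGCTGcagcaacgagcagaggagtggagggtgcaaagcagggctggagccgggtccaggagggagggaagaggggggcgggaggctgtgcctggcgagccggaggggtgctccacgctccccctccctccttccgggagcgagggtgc
Over the 250 bases before the start used in that table, Pdgfra held 1 E-box, Lhfpl3 2, Neu4 1 and Cspg4 and Olig2 0, while 66.2% of 32841 RefSeq promoters held at least 1. The SOX-type letters ACAAAG or ACAATG, searched on both strands, occurred in Olig2 alone among the 5, once, against 25.2% of all promoters. The 2 E-boxes of Lhfpl3 are both CAGCTG, so the letters differ from the CATCTG of Pdgfra. These matches describe the windows only.

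Per length of transcript, Olig1 was by far the highest of the genes. In the 12 dissections it stood at 86.9 ± 8.22 RPKM (reads per kilobase of the deposited gene length, on the CPM scale, SD, n = 12), against 11.1 ± 2.20 RPKM for C1ql1, the next in order, and 1.09 ± 0.415 RPKM for Cspg4, the lowest. Gpr17 (9.50 RPKM), Lhfpl3 (8.58 RPKM), Olig2 (8.50 RPKM), Sox10 (6.56 RPKM), Cacng4 (5.25 RPKM), Pdgfra (4.09 RPKM) and Neu4 (2.84 RPKM) lay between them. These 7 overlapped each other in order, since each gene's range over libraries reached into that of the next. Behind these levels stood 61 to 4249 counts per gene and dissection, so counting error was small there. Of the 50 values in the imprints, 16 rested on fewer than 10 counts and 9 on 3 counts or fewer, and the lowest was 1 count.

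**Figure D1:**
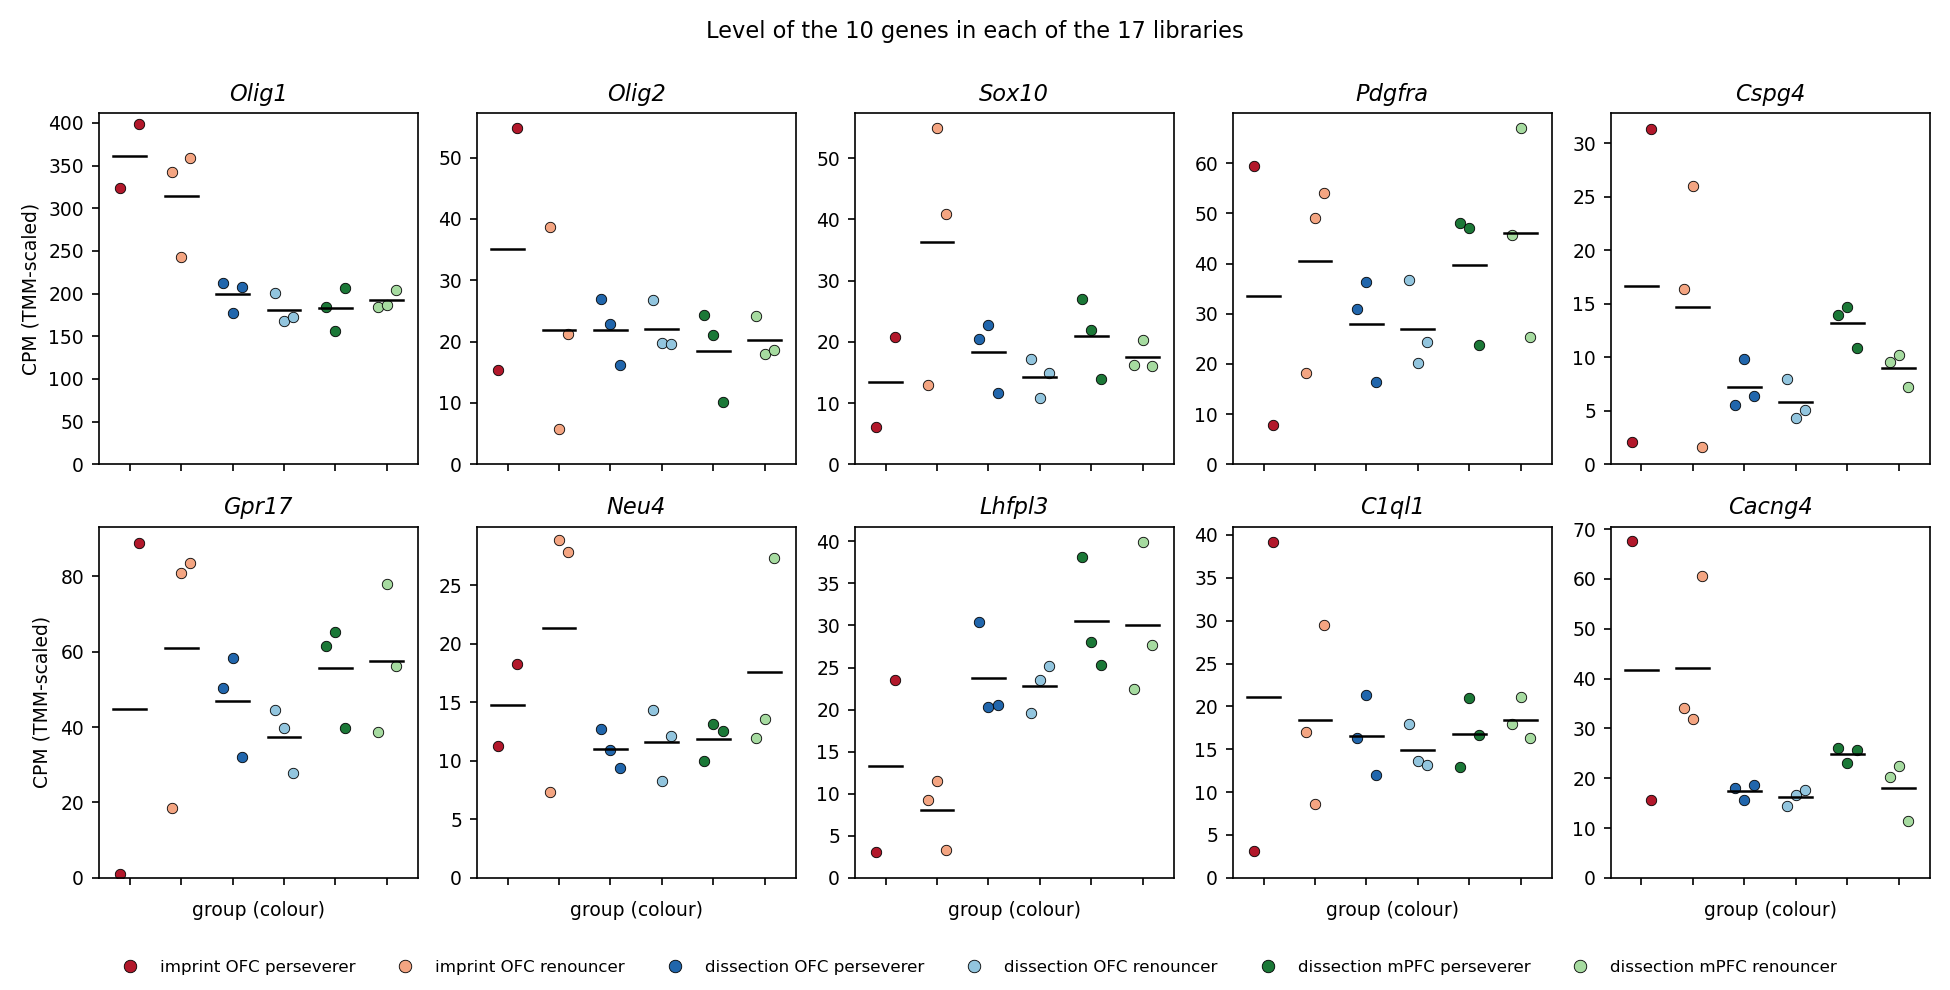
Level of each gene (CPM after TMM scaling, linear axes from 0) in the 17 libraries, 1 point per library and a bar at each group's mean, with the perseverer group left of its renouncer group. Imprints scatter far more than dissections, Olig1 is higher in every imprint than in every dissection, and Lhfpl3 is low in most imprints.

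The order of the levels across the 6 groups is given as a description. Taking each gene's groups in order of their mean CPM, the libraries of 47 of the 50 neighbouring pairs of groups overlapped. The same count was not made over all genes, so it does not tell whether these genes differ from others in this. The 3 exceptions were the step in Olig1 between imprint renouncers and OFC dissection perseverers, and the steps in Cspg4 and Cacng4 between mPFC perseverers and mPFC renouncers. Olig1 was highest in the perseverer imprints (361 ± 53.3 CPM, SD, n = 2) and renouncer imprints (315 ± 62.9 CPM, n = 3), with all 4 groups of dissections between 181 and 199 CPM. Summed over the 10 genes, the level was 596 and 579 CPM in perseverer and renouncer imprints, 390 and 353 CPM in OFC dissections of perseverers and renouncers, and 415 and 426 CPM in mPFC dissections of perseverers and renouncers.

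The first comparison asked how the lineage genes differ between the OFC and the mPFC after oDASS. The 3 genes of the precursor surface had negative log2 fold changes (OFC over mPFC) and the 18 genes of mature myelin positive ones. In the main edgeR fit, which pairs no libraries, 0 of either passed the adjusted threshold. Cspg4 stood at 0.594 times and Pdgfra at 0.642 times the mPFC level in the edgeR fit, and Gpr17 at 0.741 times. Of the 10 genes, 8 had a negative log2 fold change and the median was -0.35, against a median of 0.00 and 50.3% positive values over the 15025 genes tested. In this main edgeR fit, 0 of the 10 genes passed the adjusted threshold of 0.05 that 1.76% of all genes passed (0.892% higher and 0.865% lower). An unadjusted p under 0.05 was reached by 4 of the 10, against 14.3% of all genes. DESeq2 and limma each called 1 of the 10, Cspg4 (adjusted p = 0.0111 and 0.00701), where they called 4.56% and 5.91% of all genes. Same-numbered OFC and mPFC libraries carry neighbouring sample numbers, though the labels do not say that they are pairs. With the replicate number as a block, edgeR called 2 of the 10, Cspg4 and Pdgfra, and 1130 of the 15025 genes. The calls thus depend on whether the libraries are paired. None of the 10 had groups without overlap, where 1.16% of genes were higher and 0.69% lower in every OFC library. In bulk RNA, fewer cells of a type and less RNA per cell cannot be told apart.

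Among the surface genes, Cspg4, which encodes the NG2 proteoglycan of precursors and pericytes, had 4.30, 5.95 and 9.80 CPM (lowest, median and highest of 6 libraries) in the OFC, against 7.20, 10.5 and 14.7 CPM in the mPFC. All 6 OFC libraries lay below the mPFC median and 4 below the lowest mPFC library, though the groups overlapped. Such positions, here and for the genes below, were counted for the 10 genes only, so the share of all genes with them is not known. The log2 fold change was -0.75 ± 0.19 (SE), with a range of -1.14 to -0.37 at 2 SE and an adjusted p of 0.0630 in edgeR. It passed the threshold when OFC renouncer replicate 1 was left out (-0.88, adjusted p = 0.0436) and in none of the other 11 fits that left out 1 library. Split by phenotype, Cspg4 averaged 7.24 ± 2.27 CPM in the OFC and 13.2 ± 2.01 CPM in the mPFC of perseverers, and 5.77 ± 1.92 CPM in the OFC and 8.99 ± 1.57 CPM in the mPFC of renouncers (SD, n = 3 each).

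Pdgfra, the receptor for platelet-derived growth factor A, had 16.4, 27.6 and 36.7 CPM in the OFC, against 23.9, 46.5 and 67.0 CPM in the mPFC. Again all 6 OFC libraries lay below the mPFC median, and 4 mPFC libraries lay above the highest OFC library. The log2 fold change was -0.64 ± 0.25, with an adjusted p of 0.232, and it came to -0.46 without mPFC renouncer replicate 2, the library with 67.0 CPM. Gpr17 (chr18:31942997-31949636, minus strand), a receptor of cells that are leaving the precursor stage, had 27.7, 42.1 and 58.3 CPM in the OFC, against 38.8, 58.8 and 77.9 CPM in the mPFC. Every OFC library was below the mPFC median for Gpr17 as well, with a log2 fold change of -0.43 ± 0.19 and an adjusted p of 0.313, or -0.28 without mPFC renouncer replicate 2.

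The 3 transcription factors had values between -0.24 and 0.19 on the log2 scale. Olig1 had 168, 189 and 212 CPM in the OFC, against 157, 186 and 207 CPM in the mPFC, a log2 fold change of 0.02 ± 0.10. Its range at 2 SE was -0.19 to 0.22, which does not reach the value of Cspg4. Olig2 had 16.1, 21.3 and 26.9 CPM in the OFC and 10.2, 19.8 and 24.4 CPM in the mPFC, at 0.19 ± 0.19 on the log2 scale. Sox10 had 10.9, 16.1 and 22.8 CPM in the OFC and 14.0, 18.3 and 27.1 CPM in the mPFC, at -0.24 ± 0.18. None of the 3 came near the threshold, with adjusted p of 0.972, 0.728 and 0.608 for Olig1, Olig2 and Sox10.

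Of the other lineage genes, Cacng4, an auxiliary subunit of AMPA-type glutamate receptors, had 14.4, 17.1 and 18.6 CPM in the OFC, against 11.4, 22.7 and 26.0 CPM in the mPFC. Of the 6 mPFC libraries 5 lay above every OFC library and 1, mPFC renouncer replicate 3, below them all. The log2 fold change was -0.33 ± 0.16 with an adjusted p of 0.366, and -0.45 (adjusted p = 0.0678) without that library. Lhfpl3, a membrane protein and a widely used precursor marker, had 19.7, 22.1 and 30.4 CPM in the OFC and 22.5, 27.9 and 39.9 CPM in the mPFC, at -0.38 ± 0.16 (adjusted p = 0.291). Neu4, a sialidase that removes sialic acid from glycans, had 8.25, 11.6 and 14.4 CPM in the OFC and 9.97, 12.9 and 27.3 CPM in the mPFC, at -0.36 ± 0.21. Without mPFC renouncer replicate 3, which alone reached 27.3 CPM, its value came to -0.12. C1ql1, a secreted protein of the C1q family known as a synapse organiser in the cerebellum, differed least of these, at -0.17 ± 0.16.

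**Figure D2:**
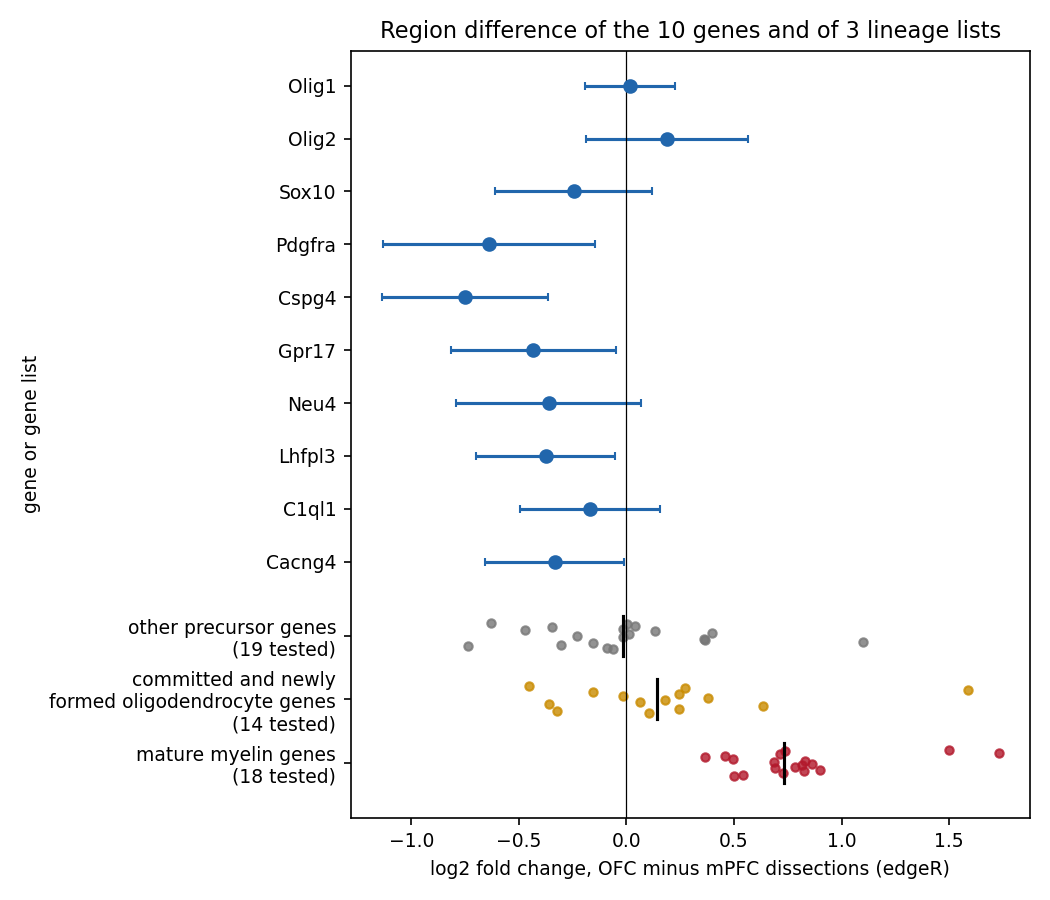
Log2 fold change between OFC and mPFC dissections (edgeR, 6 libraries each): the 10 genes with bars of 2 SE, and each tested gene of 3 lineage lists as a point with a black line at the list's median. The surface genes lie left of 0 with Cspg4 at -0.75 and Pdgfra at -0.64, and all 18 myelin genes lie right of 0 around a median of 0.73.

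The other lineage lists differed from each other in direction. Of 19 other precursor genes, 11 were lower and 8 higher in the OFC, with a median log2 fold change of -0.02. Gjc3, a connexin of the lineage, was the one member past the threshold and was higher in the OFC, at 1.10 ± 0.22 (adjusted p = 0.0207). Pcdh15, a protocadherin, stood at -0.73 ± 0.29 (adjusted p = 0.242). Among 14 genes of committed and newly formed oligodendrocytes, 9 were higher and the median was 0.14, and Bcas1, a marker of cells that have just begun to myelinate, was called at 1.59 ± 0.36 (adjusted p = 0.0356). In mature myelin, 18 of 18 genes had a positive value, with a median of 0.73 and a range of 0.37 to 1.73. None of the 18 passed in edgeR, 15 had an unadjusted p under 0.05, and DESeq2 and limma called 7 and 12 of them. Mbp, myelin basic protein, stood at 1.498 ± 0.369 (adjusted p = 0.0534) and Mobp at 1.73 ± 0.44 (adjusted p = 0.0630).

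The summed myelin level spread widely from library to library, and the ranges of the regions overlapped. Summed over the 18 genes it was 6389 to 20036 CPM in the OFC, against 2425 to 8840 CPM in the mPFC. Within the mPFC the libraries with the most myelin RNA, renouncer replicate 3 (8840 CPM) and perseverer replicate 3 (7082 CPM), had the lowest Pdgfra, at 25.5 and 23.9 CPM. The libraries with the least, perseverer replicate 2 (2425 CPM) and renouncer replicate 2 (3063 CPM), had 47.2 and 67.0 CPM of Pdgfra. These libraries are the ends of the mPFC order by myelin level. Perseverer replicate 1, which is not among them, had more Pdgfra than perseverer replicate 2. Over all dissections, Pearson r between Pdgfra and single myelin genes (deviations from group means) ran from -0.85 to 0.21, with a median of -0.47. Of 8 astrocyte markers, 7 had positive log2 fold changes between the regions. Gfap was called at 1.39 ± 0.22 (adjusted p = 0.00466, edgeR), while S100b stood at 0.82 ± 0.27 and Aldh1l1 at 0.39 ± 0.12. The part of the myelin and astrocyte levels in the values of the precursor genes was not tested.

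Cspg4 and Pdgfra are also expressed outside the lineage, in pericytes and in fibroblasts of the meninges. Summed over 8 pericyte and mural markers, the level was 77.3 to 83.7 CPM in the OFC and 50.2 to 118 CPM in the mPFC, with 0 of 8 past the threshold and a median log2 fold change of -0.17. Over 8 fibroblast markers it was 37.8 to 250 CPM in the OFC and 38.5 to 105.5 CPM in the mPFC, with 0 of 8 past the threshold and a median of 0.30. At most 1 of the 16 markers was at 0 in a dissection. Their part in the values of Cspg4 and Pdgfra was not tested.

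Growth factors and receptors of the precursors and the genes that hold back their differentiation showed no call either. Of 14 tested growth factor and receptor genes 9 were lower in the OFC, with a median of -0.15, among them Pdgfc at -0.49 ± 0.17 (adjusted p = 0.161), and Fgfr3 was at 0.37 ± 0.12 (adjusted p = 0.143). Of 13 brakes on differentiation 7 were lower, among them the Notch target Hes5 at -0.50 ± 0.14 (adjusted p = 0.0947). Among 15 tested paralogs of the 10 genes, C1ql3, a relative of C1ql1 that neurons express, was called lower in the OFC at -0.83 ± 0.10 (adjusted p = 0.000544).

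The second question was whether perseverers and renouncers differ in these genes after oDASS. In the OFC 9 of 10 log2 fold changes were positive in perseverers, around a median of 0.14, against 0.00 and 50.2% positive values over the 14621 genes tested, and leaving out single libraries turned the sign of 5 of the 10. None passed in edgeR, where 0% of all genes did, and none had an unadjusted p under 0.05, against 2.58% of all genes (377 genes). DESeq2 and limma also called 0 genes, with 420 and 966 at an unadjusted p under 0.05, 1 of the 966 among the 10. Sox10 had 20.4, 22.8 and 11.7 CPM in perseverers, against 17.2, 10.9 and 14.9 CPM in renouncers, and Gpr17 had 50.4, 58.3 and 31.99 CPM in perseverers, against 44.5, 39.7 and 27.7 CPM in renouncers. For both, perseverer replicates 1 and 2 were the highest libraries and replicate 3 lay among the renouncers. Fold changes on the log2 scale were 0.37 ± 0.25 for Sox10 and 0.34 ± 0.23 for Gpr17 (adjusted p = 0.951 for both). Cspg4 was at 0.34 ± 0.30, Olig1 at 0.16 ± 0.15 and C1ql1 at 0.16 ± 0.23, and the other 5 were between -0.06 and 0.12. None of the 10 genes had groups that did not overlap, where 4.87% of genes were higher and 4.16% lower in every perseverer library.

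In the mPFC the genes went both ways, with 4 of 10 positive in perseverers and a median of -0.05 (0.00 over the 14375 genes tested). Again 0 of 10 passed in edgeR, where 0% of all genes did and 639 (4.45%) had an unadjusted p under 0.05, none of them among the 10. DESeq2 and limma called 0 genes, with 767 and 2147 at an unadjusted p under 0.05, 2 of the 2147 among the 10. Cspg4 had 13.9, 14.7 and 10.9 CPM in perseverers, against 9.57, 10.2 and 7.20 CPM in renouncers. Cacng4 had 26.0, 23.0 and 25.6 CPM in perseverers, against 20.3, 22.4 and 11.4 CPM in renouncers. In both genes every perseverer library lay above every renouncer library, which held for 5.08% of all genes, while 0 of the 10 lay below throughout (5.73% of all genes). The log2 fold changes were 0.56 ± 0.26 for Cspg4 and 0.48 ± 0.26 for Cacng4 (adjusted p = 0.943 for both). Without renouncer replicate 3 they came to 0.42 for Cspg4 and 0.23 for Cacng4. The summed level of the 8 pericyte and mural markers was 83.6, 80.6 and 107 CPM in perseverers, against 84.4, 50.2 and 118 CPM in renouncers, and its part in the Cspg4 value was not tested.

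Neu4 in the mPFC rested on that same library. It had 9.97, 13.2 and 12.6 CPM in perseverers, against 11.9, 13.5 and 27.3 CPM in renouncers, so only renouncer replicate 3 stood off. The log2 fold change of -0.55 ± 0.33 (adjusted p = 0.943) came to -0.09 without it. Pdgfra had 48.1, 47.2 and 23.9 CPM in perseverers, against 45.7, 67.0 and 25.5 CPM in renouncers, and its value of -0.21 ± 0.34 came to 0.15 without renouncer replicate 2. Of the 18 myelin genes, 16 were lower in mPFC perseverers, with a median of -0.23 and 0 past the threshold.

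Whether the phenotype difference itself differed between the regions was tested as an interaction, the OFC effect minus the mPFC effect. Of the 10 genes 8 had a positive difference (49.4% of all genes), and 0 passed in edgeR, where 0% of 15025 genes did and 225 (1.5%) had an unadjusted p under 0.05. DESeq2 and limma called 0 genes, with 287 and 657 at an unadjusted p under 0.05. The largest differences were 0.50 ± 0.43 for Neu4, 0.39 ± 0.38 for Gpr17 and -0.34 ± 0.32 for Cacng4, each less than 2 SE from 0. Neu4 came to -0.01 without mPFC renouncer replicate 3.

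Before oDASS, the imprints allowed the same question with fewer counts. Lhfpl3 fell below the low-count filter, and of the other 9 genes 4 were positive in perseverers, with a median of -0.01 (-0.03 over the 10530 genes tested). None passed in edgeR, where 0% of all genes did and 181 (1.72%) had an unadjusted p under 0.05. DESeq2 and limma called 0 genes, with 237 and 521 at an unadjusted p under 0.05. With so few libraries and counts, the lack of a call does not show that the phenotypes were alike. Sox10 had 6.15 and 20.9 CPM in perseverers, from 6 and 8 counts, against 12.9, 54.9 and 41.0 CPM in renouncers, from 81, 19 and 25 counts. The groups overlapped on this scale, while per library total both perseverers lay below all renouncers, as 3.21% of genes did. The same held for Sox10 per count outside the haemoglobin genes, as for 4.79% of genes. In edgeR the value was -1.49 ± 0.98 (adjusted p = 0.99989). It ranged from -2.48 to -0.77 when single libraries were left out.

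For several genes the 2 perseverer imprints lay far apart. Gpr17 had 1.02 CPM in replicate 1, from 1 count, and 88.7 CPM in replicate 2, from 34 counts, while 3 counts correspond to 3.07 and 7.83 CPM in these libraries. Pdgfra went the other way, with 59.4 CPM in replicate 1 and 7.83 CPM in replicate 2, and Cacng4 had 67.6 and 15.7 CPM. Cspg4 had 2.05 and 31.3 CPM and C1ql1 3.07 and 39.1 CPM. None of the 10 had phenotypes without overlap on this scale, where 7.17% of genes were higher and 6.98% lower in both perseverers. The renouncer imprints spread as widely, with 18.4, 80.9 and 83.6 CPM of Gpr17 and 16.4, 26.0 and 1.64 CPM of Cspg4. Olig1, carried by 84 to 2159 counts, varied less, with 324 and 399 CPM in perseverers and 343, 243 and 359 CPM in renouncers.

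The phenotype difference of the imprints was set against that of the OFC dissections as an interaction, and 0 of the 10 passed in edgeR, where 0% of 15229 genes did and 1336 (8.77%) had an unadjusted p under 0.05. DESeq2 called 80 genes and limma 0, with 0 of the 10 in either. Of the 10 differences 3 were positive, against 44.4% of all genes. Sox10 differed most, at -1.83 ± 0.93 (adjusted p = 0.583).

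The last comparison set the OFC imprints against the OFC dissections. Scaled by TMM, 9 of 10 log2 fold changes were positive in the imprints, around a median of 0.50, against -0.16 and 44.0% positive values over all genes. Of the 10, 2 were called higher and 1 lower in edgeR, where 15.6% of the 15229 genes were called higher and 17.9% lower, 33.5% in all, and 43.6% had an unadjusted p under 0.05. DESeq2 called 4 of the 10 and 39.5% of all genes, and limma 2 of the 10 and 28.3% of all genes. A share of 3 in 10 is near that of all genes. The 1 called lower, Lhfpl3, missed the low-count filter among the imprints alone.

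Olig1 was called higher. It had 324 and 399 CPM in the perseverer imprints and 343, 243 and 359 CPM in the renouncer imprints, against 168, 189 and 212 CPM (lowest, median and highest of 6) in the dissections. With TMM scaling it was the 1 gene of the 10 with every imprint above every dissection, which 8.19% of all genes showed. None lay below throughout (15.9% of all genes). The separation did not hold on the other scales. Per count outside the haemoglobin genes, 0 of the 10 lay above throughout (5.01% of all genes) and 1 below (28.1%). Per library total, 0 lay above (1.69%) and 6 below (55.2%). On the log2 scale, with TMM, Olig1 stood at 0.84 ± 0.18 (adjusted p = 0.00218), or 0.76 to 0.92 when single libraries were left out. Its range at 2 SE was 0.47 to 1.21.

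Cacng4 was called higher too. It had 67.6 and 15.7 CPM in the perseverer imprints and 34.1, 31.8 and 60.6 CPM in the renouncer imprints, against 14.4, 17.1 and 18.6 CPM in the dissections. Every imprint but perseverer replicate 2 lay above all dissections. In edgeR it stood at 1.37 ± 0.34 on the log2 scale (adjusted p = 0.00484), and it stayed past the threshold when any single library was left out.

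Lhfpl3 was called lower. It had 3.07 and 23.5 CPM in the perseverer imprints and 9.21, 11.6 and 3.28 CPM in the renouncer imprints, against 19.7, 22.1 and 30.4 CPM in the dissections. The imprint values rested on 3 and 9 counts in perseverers and 58, 4 and 2 counts in renouncers, and perseverer replicate 2 lay within the dissections. Among the imprints alone Lhfpl3 missed the low-count filter, so it was tested here through its level in the dissections. The log2 fold change was -1.33 ± 0.46 (adjusted p = 0.0331). This call was lost when any of 8 of the 11 libraries was left out (adjusted p up to 0.0855), with limma (0.0786) and with RLE scaling (0.0596), with the same sign each time.

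The other 7 genes were not called. Cspg4 had 2.05 and 31.3 CPM in the perseverer imprints and 16.4, 26.0 and 1.64 CPM in the renouncer imprints, against 4.30, 5.95 and 9.80 CPM in the dissections. Cspg4 lay under the level that 3 counts give in imprint perseverer replicate 1 (3.07 CPM) and imprint renouncer replicate 3 (4.92 CPM). Its imprints lay on both sides of the dissections, 3 above all of them and 2 below, at 1.17 ± 0.59 (adjusted p = 0.141), and it passed without imprint perseverer replicate 1 (adjusted p = 0.0314) and with DESeq2 (0.0499). Neu4 stood at 0.58 ± 0.43 and passed without imprint renouncer replicate 1 (0.97, adjusted p = 0.04996). Sox10 (0.54 ± 0.50), Pdgfra (0.46 ± 0.42), Olig2 (0.35 ± 0.40), Gpr17 (0.27 ± 0.61) and C1ql1 (0.27 ± 0.48) were all within 2 SE of 0.

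**Figure D3:**
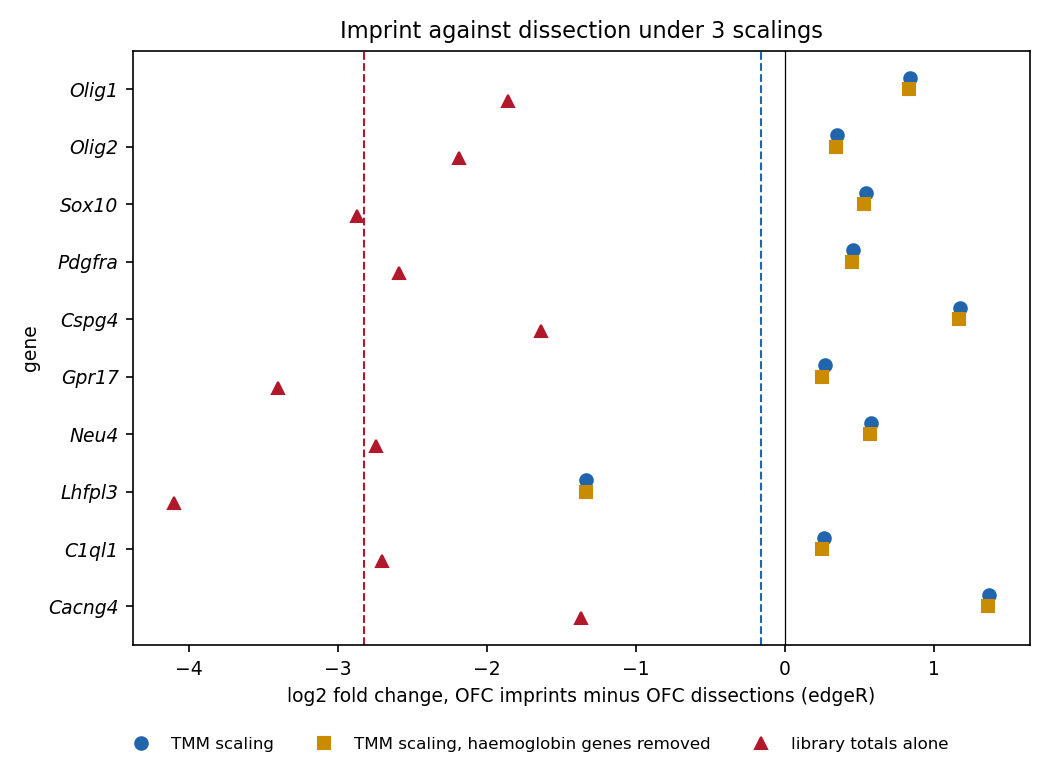
Log2 fold change of the 10 genes between OFC imprints and OFC dissections (edgeR, 5 and 6 libraries) under 3 scalings, with dashed lines at the median of all genes for TMM scaling (blue, -0.16) and for library totals alone (red, -2.82). Removing the haemoglobin genes before TMM scaling leaves the values in place, while library totals move all 10 below 0.

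These directions hold relative to the bulk of the genes, not to the whole library. Scaled by library totals alone, which in 4 imprints are mostly haemoglobin, the median of all genes moved to -2.82 and all 10 genes were negative, from -4.10 for Lhfpl3 to -1.37 for Cacng4. Against that median, 7 of the 10 still lay above it, among them Olig1 at -1.86. The summed level of the 10 genes in the imprints was 1.58 times that in the OFC dissections with TMM scaling, 0.263 times per library total and 0.925 times per count outside the haemoglobin genes.

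Other lists were set beside these values, where 15.6% of all genes were called higher and 17.9% lower. Microglia markers had 8 of 8 positive values with 7 called higher, and their summed level was 1326 to 2855 CPM in the imprints and 883 to 1218 CPM in the dissections. Other precursor genes went both ways: of 19, 2 were called higher, Sox6 at 1.51 ± 0.36 and Pcdh15 at 1.85 ± 0.60, and 2 lower, among them Tnr at -1.76 ± 0.57. Of 18 mature myelin genes 5 were called lower and 1 higher, Cnp at 0.96 ± 0.22. Of these lists, 16 of the 19 precursor and 15 of the 18 myelin genes passed the low-count filter among the imprints alone, and 33.5% of all genes were called in either direction. The summed level of 10 cell division genes was 34.0 to 321 CPM in the imprints and 30.6 to 41.9 CPM in the dissections. The part of these other cells in the values of the lineage genes was not tested.

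Within the dissections the genes did not all move together from library to library. For each gene the deviation of log2(CPM + 1) from its group's mean was correlated over the 12 dissections, as a description, since libraries share depth and cell content. Sox10 and Pdgfra went together most (Pearson r = 0.87), followed by Olig2 and Sox10 (0.78), Pdgfra and Cspg4 (0.75) and Sox10 and Gpr17 (0.71). Olig1 stood apart, with negative values against 8 of the other 9 genes (-0.38 with Pdgfra) and a positive one with Neu4 (0.37). Cacng4 and Neu4 went opposite ways (-0.81), in which mPFC renouncer replicate 3, with 11.4 CPM of Cacng4 and 27.3 CPM of Neu4, was the lowest for one gene and the highest for the other.

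The genes also split by how they ran with mature myelin. Over 17 myelin genes the median r was 0.48 for Neu4 and 0.44 for Olig1, against -0.60 for C1ql1, -0.55 for Cspg4, -0.51 for Cacng4 and -0.47 for Pdgfra. Olig2 (0.11), Sox10 (-0.06), Lhfpl3 (0.17) and Gpr17 (-0.24) lay between. Among 10461 genes outside all lists with a mean log2 level above 3, those most like the 10 by mean r over the 12 dissections were Gde1 (0.51), Tmem246 (0.50), Mas1 (0.50), Atf2 (0.50) and Twf2 (0.49), where the 10 genes' own mean r with each other ranged from -0.19 for Olig1 to 0.42 for Sox10. With levels in place of deviations 1 of these 5, Mas1, stayed among the first 5. Neuron markers did not all run with the 10 genes: the mean r of the 8 markers ranged from -0.30 to 0.50, highest for Slc17a7. Their median was 0.31, against 0.25 for the 10 genes among themselves, 0.14 for 15 other precursor genes and 0.08 for all candidates. The part of the neuronal level in these correlations was not tested.

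**Figure D4:**
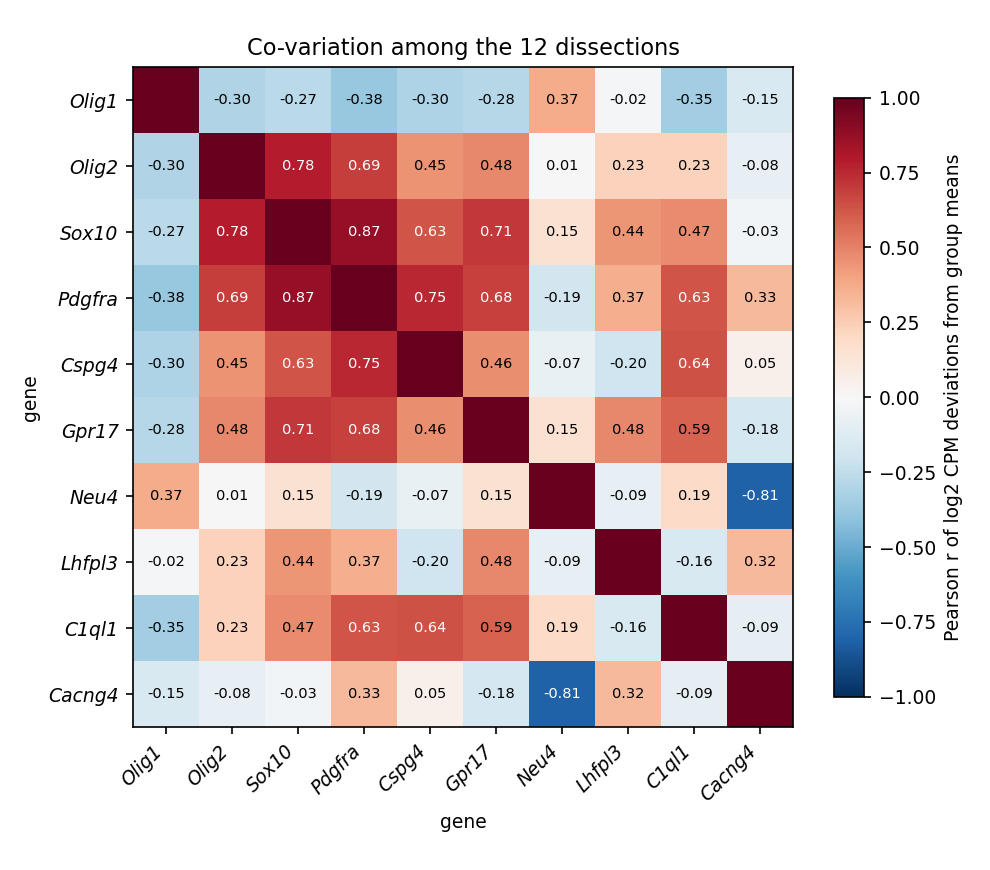
Pearson r between the 10 genes over the 12 dissections, from deviations of log2(CPM + 1) from the mean of each group of 3, on a colour scale from -1 (blue) to 1 (red). Olig2, Sox10, Pdgfra, Cspg4 and Gpr17 form a block of positive values up to 0.87, and Olig1 is negative with most of the others.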

How the data were processed

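The authors deposited raw counts per gene in 3 tables, 1 column per library, with a gene length in bases per the file headers (a column of another unit, used for RPKM). Per the labels, a Qiagen kit served for total RNA, and SMART-Seq v4 cDNA went into Nextera libraries. Per the submitters' processing notes, FastQC 0.11.8 and the build mm10 were used; which aligner, counter and annotation followed is not given in the sources used here.

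Counts were fitted in R 4.3.3 with edgeR 4.0.16 (filterByExpr, TMM, robust quasi-likelihood, two-sided) over all genes, calling genes at an adjusted p (Benjamini-Hochberg) under 0.05. Phenotypes were compared within each table. Regions (12 dissections) and imprints against dissections (11 OFC libraries) had phenotype as a term, and interactions were contrasts of 4 group means. Fold changes are log2; the SE is the fold change over the square root of F and is approximate. CPM used TMM factors set to average 1 over the dissections. Alternatives were DESeq2 1.42.0, limma 3.58.1 voom with quality weights, RLE scaling, library totals, other filters, a threshold of 0.1, haemoglobin genes removed, 1 fit of all 17 libraries, a block for the replicate number, and leaving out each library. Intervals of 2 SE and count floors cover these libraries and counting error only. The tests were checked on simulated data, with libraries drawn independently and changes put only into genes above a minimum mean count. The shares recovered therefore do not cover genes with fewer counts or paired libraries. Of 115 edgeR calls in the simulated phenotype fit of OFC dissections, 11 were of unchanged genes, with fewer such calls in every other fit. The fits of phenotype in imprints and of phenotype by stage recovered no changed gene there. Of 1.5-fold changes, the phenotype fit recovered 13.4% (OFC dissections) and 1.49% (mPFC), and phenotype by region 0%. Of 2-fold changes these recovered 52.2%, 32.8% and 20.9%, and of 4-fold changes 90.9%, 83.3% and 74.2%. The region fit recovered 32.8% of 1.5-fold and 76.1% of 2-fold changes, and imprints against dissections 1.49% and 8.96%. So the lack of a call in any of these fits does not show the lack of a difference, in particular one of 2-fold or less. Exon overlaps came from GENCODE M21 and promoters from RefSeq. The 10 genes, the lists (177 genes in 17 lists) and the comparisons were chosen with earlier results of these data known. Values were named for the 10 genes and for up to 3 genes of each other list by smallest p. No promoter was matched for the 5 genes without one here, and no protein sequence was used.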

Additional observations from a re-analysis of the deposited data

Results flagged for a closer look

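In 36 groups of 5 or 6 libraries, the highest or lowest library was checked for a gap to its nearest neighbour that is large against the group's range. Chance gives such a gap in about 1 group of 20, and 2 groups had one. Imprint renouncer replicate 1 had 29.7% of its counts in haemoglobin genes, where the nearest of the other imprints had 85.4%. Without it, the summed level of the 10 lineage genes in the imprints was 1.63 times that in the OFC dissections, against 1.58 times with it. In the mPFC, Neu4 stood at 27.3 CPM in renouncer replicate 3, where the nearest of the other 5 libraries had 13.5 CPM. The same library had the highest summed myelin level of the mPFC dissections (8840 CPM), the lowest Cacng4 (11.4 CPM) and the highest summed level of the pericyte and mural markers (118 CPM). The part of these levels in the Neu4 value was not tested.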

How the results depend on the processing

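Of 807 values of single genes under the alternatives, 733 kept their direction and side of the threshold, 55 reversed, 11 lost a call and 8 gained one. Where library totals replaced TMM, the imprints against OFC dissections gave 10490 calls, 6 of them among the 10 genes, and 9 genes reversed: Olig1 to -1.86, Olig2 to -2.19, Sox10 to -2.87, Pdgfra to -2.59, Cspg4 to -1.63, Gpr17 to -3.40, Neu4 to -2.75, C1ql1 to -2.70 and Cacng4 to -1.37, with the median of all genes at -2.82. The summed level of the 10 genes relative to OFC dissections came to 0.263 per library total and 0.925 without haemoglobin genes, against 1.58. The highest mean r of a gene with the 10 was 0.55 on levels, against 0.51 on deviations.

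Region calls numbered 264 in the main fit, 685 with DESeq2 and 888 with limma (1 of the 10 genes in each), 21 with all 17 libraries in 1 fit, and 525 at a threshold of 0.1 (1 of the 10). Leaving out single libraries gave 120 (without mPFC renouncer replicate 2) to 448 (without mPFC perseverer replicate 3), with 0 to 1 of the 10 genes. For imprints against dissections leave-outs gave 4138 to 5488 calls, with 2 to 3 of the 10. The phenotype by stage interaction had 80 calls with DESeq2, 6 with all 17 libraries and 0 to 4 in leave-outs, and the phenotype in imprints had 63 with all 17 libraries, against 0 in each main fit. The cause of these shifts was not tested.

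With the replicate number as a block, the region fit called 1130 genes, 2 of them among the 10: Cspg4 at -0.78 (adjusted p = 0.0163, edgeR) and Pdgfra at -0.61 (adjusted p = 0.0356). The labels do not say that numbers pair libraries. Same-numbered OFC and mPFC libraries carry neighbouring sample numbers in the labels, and their deviations from the group means correlated at 0.212, 0.668 and 0.681 in perseverers and 0.226, -0.0799 and 0.35 in renouncers, with 8 of 12 dissections closest to their own number. Since 1 of the 6 correlations was below 0.1, the numbers were not taken as pairs in the main fit, but the data hint at a pairing of most. If the pairing holds, the main fit treats paired libraries as independent, and the region calls depend on this choice. The block also took Olig2 to -0.00689 between phenotypes in the OFC, and Gpr17 to -0.16 and C1ql1 to -0.0488 in the imprints against dissections.

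The remaining reversals were as follows. Between phenotypes in the OFC, Olig2 came to -0.00165 with DESeq2, -0.00172 with RLE scaling, -0.0163 with library totals and -0.00778 with all 17 libraries, and Neu4 to 0.12 with limma. In the mPFC, limma gave 0.0484 for Olig2 and 0.24 for Gpr17, and library totals -0.0122 for Lhfpl3. Between regions Olig1 came to -0.00169 with library totals. For imprints against dissections limma gave -0.0371 for Pdgfra and -0.42 for Gpr17. Leaving out single libraries changed the sign, between phenotypes in the OFC, of Olig2 (-0.16 to 0.17), Pdgfra (-0.17 to 0.33), Neu4 (-0.25 to 0.12), Lhfpl3 (-0.13 to 0.18) and C1ql1 (-0.0568 to 0.33). In the mPFC it did so for Olig1 (-0.18 to 0.0626), Olig2 (-0.38 to 0.15), Pdgfra (-0.50 to 0.15), Gpr17 (-0.26 to 0.23), Lhfpl3 (-0.15 to 0.29) and C1ql1 (-0.28 to 0.0428). The same held for Olig1 between regions (-0.0313 to 0.0596), for Olig2 (-0.0328 to 0.54), Gpr17 (-0.26 to 0.68) and C1ql1 (-0.26 to 0.61) in imprints against dissections, and for Neu4 in the phenotype by region interaction (-0.00692 to 0.68). Depth limits the imprints most, where 16 of 50 values rest on fewer than 10 counts.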

Other observations

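Some relatives of the 10 genes were called lower in the imprints than in the OFC dissections, as 17.9% of all genes were. Those named here were taken by smallest p, and the share of relatives called is not given. C1ql1 (0.27 ± 0.48), Neu4 (0.58 ± 0.43) and Cacng4 (1.37 ± 0.34) themselves had positive values, of which only that of Cacng4 was called. C1ql3, which missed the low-count filter among the imprints alone, stood at -2.66 ± 0.42 (adjusted p = 0.000125), Neu1, the lysosomal sialidase, at -0.96 ± 0.25 (adjusted p = 0.00806) and Cacng3, an auxiliary subunit of AMPA receptors, at -0.96 ± 0.27 (adjusted p = 0.0116), by edgeR on log2 fold changes. The summed level of neuron markers was also lower in the imprints, and its part in these values was not tested.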
